A study of Mus musculus with 21 samples.

Results

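The genes described here are 44 genes of amino acid catabolism and the urea cycle, chosen by name from pathway knowledge out of the 55418 gene symbols that each count file lists. They cover the urea cycle with its activator and ornithine carrier, glutamine and the transaminases, and the breakdown of histidine, serine, tyrosine, tryptophan, lysine, proline, glycine and glyoxylate, the branched-chain amino acids, and cysteine. All 44 were found in every file and all 44 passed the filter on low counts, among 15677 genes tested. RNA-seq read counts were made from whole livers of mice, 1 library per animal. The 4 groups combine a genotype with a diet. KO means that Mboat7, which encodes an acyltransferase for lysophosphatidylinositol, was deleted in hepatocytes, and WT means wild type. HFMCD stands for the feed that the sample labels call high in fat, low in methionine and deficient in choline, and chow is the standard diet at steady state. The treatment protocol writes HFCDD for the feed and does not spell it out, and both names were taken to mean 1 diet. The groups are KO on HFMCD (n = 4), WT on HFMCD (n = 4), KO on chow (n = 7) and WT on chow (n = 6). The HFMCD animals were 6 to 8 weeks old when the diet began and ate it for 6 weeks, whereas the chow animals were 10 weeks old. The labels name neither the promoter nor the recombinase behind the deletion, and give no sex. Diet, age at sampling and the number series of the animals go together, so their parts cannot be told apart.

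The liver is the main organ that degrades amino acids. It strips nitrogen by transamination and deamination, turns the resulting ammonia into urea through enzymes split between the mitochondrial matrix and the cytosol, and sends the carbon skeletons to glucose or to oxidation. Several of these enzymes are classical targets of glucagon, glucocorticoids and feeding state in rodents, among them Tat, Sds and the enzymes of the urea cycle. Methionine supplies cysteine by transsulfuration, and on the route to taurine cysteine is oxidised by Cdo1 and its product decarboxylated by Csad.

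Libraries held 17502231 to 25822972 counts. Mboat7 itself stood at 20.8, 15.8, 18.8 and 20.2 CPM (counts relative to the TMM-adjusted total over the tested genes) in the KO livers on HFMCD, against 34.7, 35.6, 36.6 and 38.1 CPM in WT livers on HFMCD, and at 18.8 to 24.1 CPM (median 21.9) in KO livers on chow, against 33.0 to 39.7 CPM (median 36.1) in WT livers on chow. Every KO library was below every WT library of either diet. Exons of Mboat7 lie over Tsen34 on the other strand, and the strand setting of the counting was not stated. Hepatocyte transcripts were abundant in every library, as the label of whole liver says. The 14 hepatocyte markers found in the files summed to 120000 to 128060 CPM in KO livers on HFMCD and 122940 to 140640 CPM in WT livers on HFMCD, and to 129440 to 159640 and 130970 to 163420 CPM in KO and WT livers on chow. Some chow libraries stood apart. KO chow replicates 1 and 7 and WT chow replicates 3 and 5 carried transcripts of gallbladder mucosa. They reached 113.9 summed CPM over the 2 of 5 markers that passed the filter, and 1 of the 5, Muc5b, was at 0 in every library. KO chow replicate 7 also held 331 CPM of the 1 striated muscle marker of 6 that passed the filter. Of the 44 genes, KO chow replicate 1 had the lowest value of its group for 27 and KO chow replicate 2 the highest for 22. WT chow replicate 6 was highest in its group for 19 and lowest for 8, and WT chow replicate 1 was lowest for 20. On HFMCD, KO replicate 3 was highest in its group for 27 and KO replicate 2 lowest for 23. The 44 genes together made up 17413 to 21178 CPM in KO livers on HFMCD and 19782 to 22701 CPM in WT livers on HFMCD, against 23783 to 30831 CPM in KO livers on chow and 22845 to 46632 CPM in WT livers on chow, where replicate 6 held the 46632 and the other 5 libraries ended at 32009.

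Per transcript length, the genes spanned a range from abundant to scarce. In TPM, a unit that divides by transcript length, Cdo1, the cysteine dioxygenase that opens the route to taurine, stood first in WT livers on chow at 3439 ± 431 TPM (SD, n = 6). Hpd, the dioxygenase that makes homogentisate in tyrosine breakdown, followed at 3314 ± 486 TPM, and the difference between them was smaller than their spread. Tat, the aminotransferase that starts tyrosine breakdown, averaged 2771 ± 2057 TPM and had the widest spread of these 3. Arginase 1 (Arg1), carbamoyl phosphate synthetase (Cps1) and argininosuccinate synthetase (Ass1) came next at 2073 ± 733, 1997 ± 912 and 1755 ± 499 TPM, again not apart beyond their spread. At the other end stood Afmid, a kynurenine formamidase, at 10.3 ± 3.29 TPM and Mccc1, a subunit of the leucine-pathway methylcrotonyl-CoA carboxylase, at 9.80 ± 1.53 TPM. On HFMCD, Cdo1 averaged 3705 ± 177 TPM in KO livers and 3614 ± 379.9 TPM in WT livers (SD, n = 4 each), and Tat averaged 585 ± 247 and 752 ± 35.9 TPM there.

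**Figure D1:**
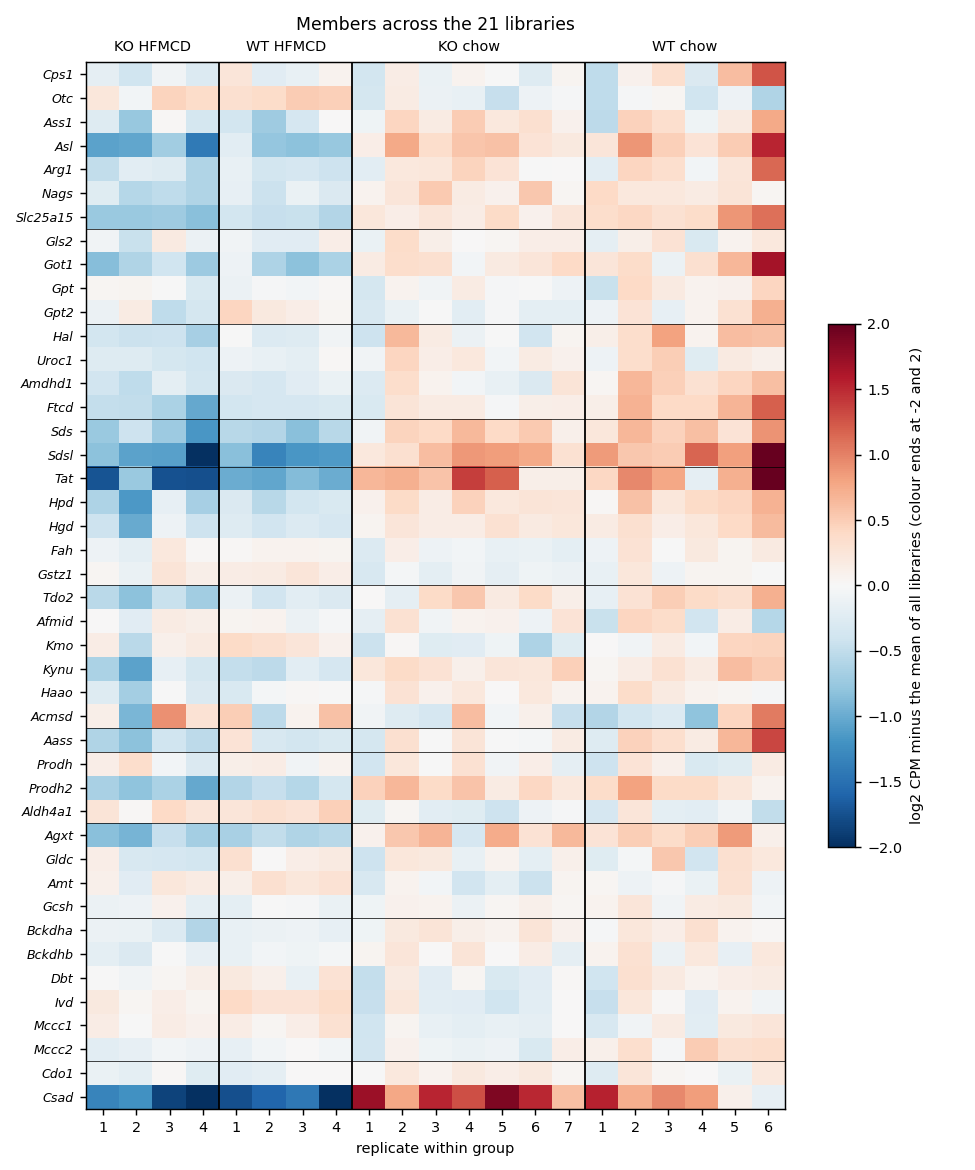
Each row is 1 of the 44 genes, grouped by pathway, and each column is 1 library; colour gives the log2 CPM relative to the gene's mean over all 21 libraries. The HFMCD libraries are low for Csad, Sdsl, Tat, Asl, Sds, Slc25a15, Agxt and Prodh2 in both genotypes, and WT chow replicate 6 is high for Tat, Cps1, Arg1 and Got1.

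HFMCD against chow was the contrast in which these genes differed most. In KO livers 25 of the 44 were called lower on HFMCD (56.8%) and 6 higher (13.6%), at an edgeR quasi-likelihood adjusted p under 0.05. Over all genes tested the same contrast called 36% lower and 33.7% higher. In WT livers 23 were called lower (52.3%) and 3 higher (6.82%), beside 33.6% lower and 29% higher over all genes. The median log2 fold change of the 44 genes was -0.38 in KO and -0.30 in WT, against -0.02 and -0.05 for all genes. Calls were shared: 21 genes were called lower in both genotypes, 3 were called higher in both (Otc, Aldh4a1 and Ivd), 11 were called in neither, and 0 were called in opposite directions. In bulk tissue, fewer hepatocytes and less of a transcript per hepatocyte cannot be told apart. The hepatocyte markers themselves had a median log2 fold change of -0.37 in KO (9 of 14 called lower, 1 higher) and -0.20 in WT (7 lower, 1 higher). Macrophage markers summed to 2110.2 to 2685 and 2129 to 2551 CPM in KO and WT livers on HFMCD, against 357 to 487 and 245 to 721 CPM in KO and WT livers on chow, and 9 of 10 were called higher in each genotype. Markers of stellate cells and matrix summed to 1491 to 1719 and 1125 to 1397 CPM on HFMCD in KO and WT, against 201 to 505 and 197 to 276 CPM on chow, with 8 of 10 called higher in each genotype. No marker of these 3 lists was at 0 throughout, and their part in the changes of the 44 genes was not tested. When the libraries were scaled to the hepatocyte markers in place of TMM, the median of all genes moved to 0.37 in KO and 0.26 in WT, that of the 44 genes to 0.01 in each, and the calls to 14 higher and 12 lower in KO and 10 higher and 14 lower in WT. Under both scalings 10 genes were called lower in both genotypes: Csad, Sdsl, Tat, Asl, Sds, Slc25a15, Agxt, Prodh2, Hpd and Kynu. Otc, Aldh4a1 and Ivd were higher in both genotypes under both scalings.

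**Figure D2:**
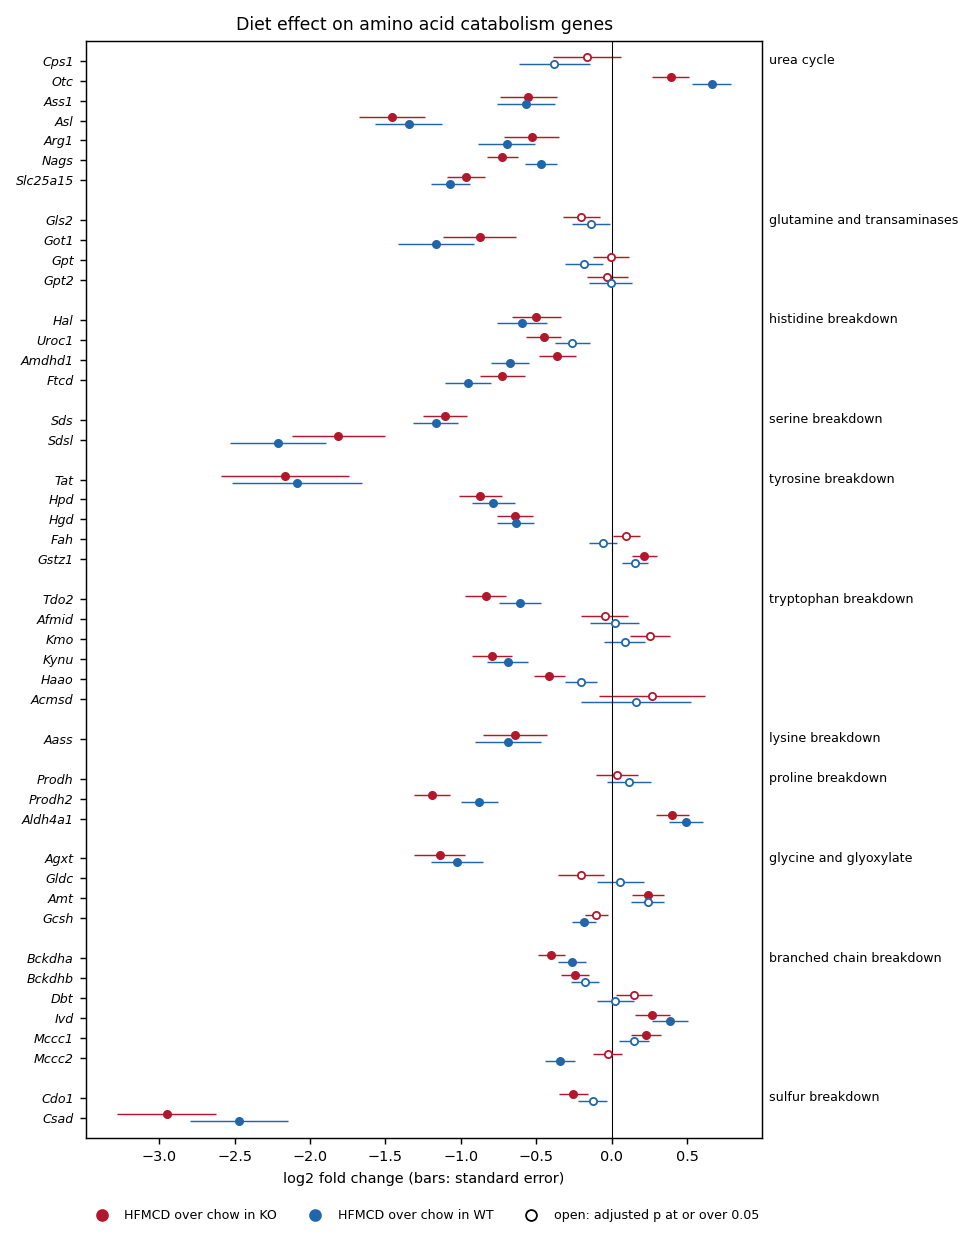
Points give the log2 fold change of HFMCD over chow for each of the 44 genes in KO and in WT livers, with bars of 1 standard error; filled points have an adjusted p under 0.05. Csad, Sdsl and Tat lie furthest to the left in both genotypes, and Otc and Aldh4a1 lie to the right.

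In the urea cycle 5 of 7 genes were called lower on HFMCD in each genotype, 1 was called higher and 1, Cps1, was not called. Asl, the argininosuccinate lyase that releases arginine (chromosome 5, 130011258 to 130029247, minus strand, GRCm38), fell most. Its values were 353, 358, 456 and 278 CPM in KO livers on HFMCD, against 811 to 1252 CPM (median 943) in KO livers on chow. In WT livers they were 636, 431, 419 and 435 CPM on HFMCD, against 874 to 2122 CPM (median 1039) on chow. The 2 diets did not overlap in either genotype, and WT HFMCD replicate 1 stood above the other 3 of its group. The log2 fold change was -1.46 (SE 0.22, adjusted p = 6.2e-06) in KO and -1.35 (SE 0.22, adjusted p = 2.6e-05) in WT. Slc25a15, the mitochondrial ornithine carrier, also fell, with log2 fold changes of -0.97 (SE 0.12, adjusted p = 3.1e-07) in KO and -1.07 (SE 0.13, adjusted p = 1.4e-07) in WT. Nags, which makes the obligatory activator of Cps1, had log2 fold changes of -0.72 in KO and -0.47 in WT. Arg1 had -0.53 and -0.70, and Ass1 -0.55 and -0.57, in KO and WT.

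Otc, the ornithine transcarbamylase that makes citrulline in the matrix (chromosome X, 10252305 to 10321024, plus strand), went the other way. It stood at 419, 345, 491 and 464 CPM in KO livers on HFMCD, against 261 to 405 CPM (median 332) in KO livers on chow, and at 447, 464, 513 and 499 CPM in WT livers on HFMCD, against 238 to 369 CPM (median 303) in WT livers on chow. The diets overlapped in KO and not in WT. The log2 fold change was 0.39 (SE 0.12, adjusted p = 0.0079) in KO and 0.66 (SE 0.13, adjusted p = 1.0e-04) in WT. Cps1, the first enzyme of the cycle, had log2 fold changes of -0.16 (SE 0.23, adjusted p = 0.53) in KO and -0.38 (SE 0.23, adjusted p = 0.16) in WT, which did not pass the threshold. The call of Ass1 ended without KO HFMCD replicate 2 in KO (adjusted p = 0.0675), and in WT without WT HFMCD replicate 2 (0.0671), WT chow replicate 2 (0.0524) or WT chow replicate 6 (0.0702). That of Arg1 in KO ended without KO HFMCD replicate 4 (adjusted p = 0.0535). Scaled to the hepatocyte markers, Ass1 and Arg1 were called in neither genotype (adjusted p = 0.423 and 0.525 in KO, 0.25 and 0.0843 in WT). Nags was then called in KO and not in WT (0.186), and Cps1 turned to 0.22 in KO (0.419). Asl, Slc25a15 and Otc kept their calls. Without the low-count filter, the calls of Ass1 in both genotypes and of Arg1 in KO also ended.

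**Figure D3:**
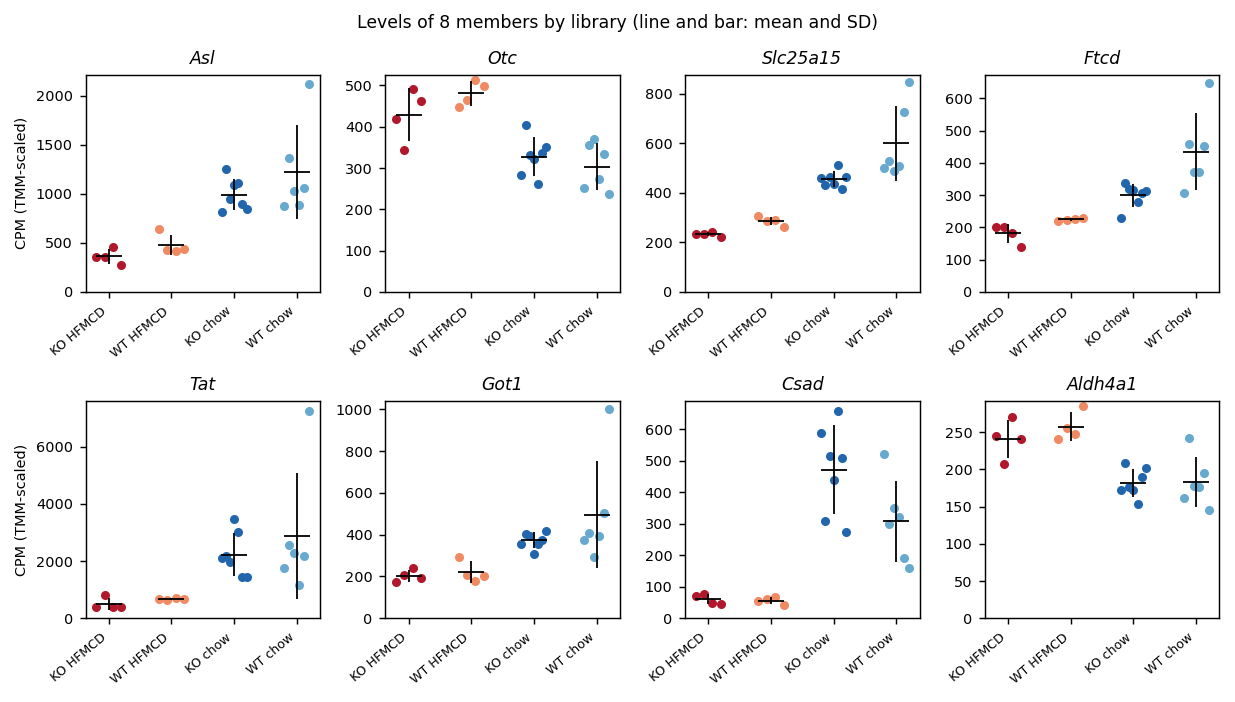
Each panel plots the CPM of 1 gene on a linear axis from 0 in every library, with groups in the order KO HFMCD, WT HFMCD, KO chow and WT chow; points are libraries, and lines with bars are group means with the SD. Tat, Csad, Asl and Slc25a15 sit lower in all HFMCD libraries than in all chow libraries of the same genotype, and WT chow replicate 6 is the high point for Tat.

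Among glutamine and transaminase genes, 1 of 4 was called in each genotype. Got1, the cytosolic aspartate aminotransferase that also feeds the malate-aspartate shuttle, was at 175, 208, 241 and 191 CPM in KO livers on HFMCD, against 306 to 419 CPM (median 375) in KO livers on chow. In WT livers it was at 295, 206, 179 and 204 CPM on HFMCD, against 291 to 999 CPM (median 401) on chow, where replicate 6 held the 999. The diets overlapped in WT, by WT HFMCD replicate 1, and not in KO. Its log2 fold change was -0.88 (SE 0.24, adjusted p = 0.0034) in KO and -1.16 (SE 0.25, adjusted p = 5.0e-04) in WT. Scaled to the hepatocyte markers, Got1 stayed called in WT (adjusted p = 0.0081) and not in KO (0.0912). The glutaminase Gls2 and the alanine aminotransferases Gpt and Gpt2 lay between -0.20 and -0.0046 in KO and between -0.19 and -0.01 in WT, none of them called.

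The serine and threonine dehydratases fell together. Sds, which deaminates serine to pyruvate, was at 131, 165, 133 and 98.4 CPM in KO livers on HFMCD, against 210.2 to 345 CPM (median 291) in KO livers on chow. It was at 149.7, 147, 123 and 150 CPM in WT livers on HFMCD, against 257 to 410.0 CPM (median 316.98) in WT livers on chow. Sdsl, its close relative, was at 14.9, 12.5, 12.4 and 4.83 CPM in KO livers on HFMCD, against 30.2 to 47.6 CPM (median 40.2) in KO livers on chow. In WT livers Sdsl was at 14.6, 10.5, 11.7 and 11.9 CPM on HFMCD, against 37.2 to 111 CPM (median 46.7) on chow. Neither gene overlapped between diets. On the log2 scale the change was -1.11 (SE 0.15, adjusted p = 5.9e-07) in KO and -1.17 (SE 0.15, adjusted p = 5.4e-07) in WT for Sds, and -1.81 (SE 0.31, adjusted p = 4.4e-05) in KO and -2.21 (SE 0.32, adjusted p = 8.6e-06) in WT for Sdsl. Exons of Sds overlap Plbd2 on the opposite strand, so reads of that pair may be mixed.

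Tyrosine breakdown runs from Tat through Hpd and Hgd to Gstz1 and Fah, and the diet difference was largest at the first step. Tat (chromosome 8, 109990437 to 109999803, plus strand) was at 401, 797, 396 and 391 CPM in KO livers on HFMCD, against 1434 to 3456 CPM (median 2102) in KO livers on chow. It was at 664, 647, 726 and 664 CPM in WT livers on HFMCD, against 1168 to 7253 CPM (median 2224) in WT livers on chow. All HFMCD libraries were below all chow libraries of their genotype. KO HFMCD replicate 2, at 797 CPM, was the highest on that diet. For Tat the log2 fold change was -2.17 (SE 0.43, adjusted p = 2.0e-04) in KO and -2.09 (SE 0.43, adjusted p = 4.0e-04) in WT. Hpd had -0.87 in KO and -0.78 in WT, and Hgd, the homogentisate dioxygenase, -0.64 and -0.64, all called. Scaled to the hepatocyte markers, the KO call of Hgd ended (adjusted p = 0.0549). Gstz1, the maleylacetoacetate isomerase, was at 622, 553, 722 and 654 CPM in KO livers on HFMCD, against 484 to 586 CPM (median 559) in KO livers on chow, a log2 fold change of 0.22 (SE 0.08, adjusted p = 0.022) whose groups overlap. Without KO HFMCD replicate 3 its adjusted p was 0.114. In WT Gstz1 had 0.15 (SE 0.09, adjusted p = 0.12). Fah, which closes the pathway by releasing fumarate and acetoacetate, had 0.10 in KO and -0.06 in WT, called in neither.

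The ratio of 2 genes in the same library does not depend on how libraries are scaled. The 3 ratios here, chosen after the values were seen, set a much lower gene against a less changed or higher one of the same pathway. In CPM, Tat over Fah was 0.683 to 1.81 in KO livers on HFMCD, against 3.14 to 7.18 in KO livers on chow, and 1.23 to 1.38 in WT livers on HFMCD, against 2.03 to 12.7 in WT livers on chow. Asl over Otc was 0.599 to 1.04 in KO livers on HFMCD, against 2.40 to 4.26 in KO livers on chow, and 0.817 to 1.42 in WT livers on HFMCD, against 2.77 to 8.91 in WT livers on chow. Csad over Cdo1 was 0.0207 to 0.0376 in KO livers on HFMCD, against 0.112 to 0.253 in KO livers on chow, and 0.0177 to 0.0286 in WT livers on HFMCD, against 0.0587 to 0.263 in WT livers on chow. The mean difference on the log2 scale, HFMCD minus chow, was -2.27 (SE 0.36) in KO and -1.78 (SE 0.35) in WT for Tat over Fah. It was -1.85 (SE 0.20) and -1.98 (SE 0.31) for Asl over Otc, and -2.67 (SE 0.28) and -2.27 (SE 0.34) for Csad over Cdo1, in KO and WT. Since the genes were picked for their values, the ratios are a description with no test.

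Cysteine breakdown held the largest diet difference of the 44 genes. Csad, the cysteine sulfinate decarboxylase of taurine synthesis (chromosome 15, 102176999 to 102204724, minus strand), was at 72.0, 78.0, 49.7 and 44.4 CPM in KO livers on HFMCD, against 273 to 660.2 CPM (median 511) in KO livers on chow. It was at 53.5, 59.7, 66.8 and 42.1 CPM in WT livers on HFMCD, against 161 to 522 CPM (median 310.2) in WT livers on chow. The diets did not overlap, and within WT chow the order was not that of Tat: replicate 6, highest for Tat, was lowest for Csad at 161 CPM. The log2 fold change of Csad was -2.95 (SE 0.33, adjusted p = 2.3e-07) in KO and -2.47 (SE 0.33, adjusted p = 2.7e-06) in WT. Cdo1, a step before it, had -0.25 (SE 0.09, adjusted p = 0.020) in KO and -0.13 (SE 0.10, adjusted p = 0.26) in WT. The TPM means of Cdo1 did not show the same direction in WT: they were 3614 ± 379.9 on HFMCD, against 3439 ± 431 on chow, and in KO they were 3705 ± 177 on HFMCD, against 3776 ± 148 on chow (SD). The KO call of Cdo1 ended without KO HFMCD replicate 2 (adjusted p = 0.0597) or 4 (0.0752), or KO chow replicate 2 (0.0578) or 6 (0.0605), and scaled to the hepatocyte markers it turned to 0.13. Exons of Csad lie over Zfp740 on the other strand.

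The promoters of 5 genes are shown because they span the diet response: Tat, Csad, Got1 and Slc25a15 were lower on HFMCD and Otc was higher. Sequences are from RefSeq on GRCm38.p6, 5′ to 3′ in the direction of the gene, from 250 bases before the start to 50 after it, in lower case. Capitals mark matches to the motifs searched. For a gene with several starts, the most upstream one with an E-box (defined below) was shown, else the most upstream. An E-box in a window shown was therefore favoured by this choice. The Csad window lies outside the gene span given above. That of Slc25a15 lies inside its gene (22375551 to 22398597).
Tat, chr8:109990186-109990485, plus strand: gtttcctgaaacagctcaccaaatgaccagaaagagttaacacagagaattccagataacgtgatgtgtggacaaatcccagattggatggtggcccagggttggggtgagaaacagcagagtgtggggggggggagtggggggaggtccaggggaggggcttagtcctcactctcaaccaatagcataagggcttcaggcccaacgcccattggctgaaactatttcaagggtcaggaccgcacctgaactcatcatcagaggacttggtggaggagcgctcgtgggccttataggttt
Csad, chr15:102205003-102205302, minus strand: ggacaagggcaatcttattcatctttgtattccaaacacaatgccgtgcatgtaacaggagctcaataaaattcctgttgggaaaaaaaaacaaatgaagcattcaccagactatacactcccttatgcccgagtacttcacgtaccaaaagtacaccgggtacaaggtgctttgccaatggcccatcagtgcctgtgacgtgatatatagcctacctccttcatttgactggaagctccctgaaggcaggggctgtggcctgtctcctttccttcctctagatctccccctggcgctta
Got1, chr19:43524556-43524855, minus strand: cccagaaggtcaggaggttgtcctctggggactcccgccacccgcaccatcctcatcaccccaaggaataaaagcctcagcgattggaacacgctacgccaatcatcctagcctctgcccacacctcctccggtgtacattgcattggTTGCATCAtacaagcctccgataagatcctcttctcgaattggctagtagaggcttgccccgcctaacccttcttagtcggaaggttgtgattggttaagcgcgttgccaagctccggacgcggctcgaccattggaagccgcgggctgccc
Slc25a15, chr8:22398228-22398527, minus strand: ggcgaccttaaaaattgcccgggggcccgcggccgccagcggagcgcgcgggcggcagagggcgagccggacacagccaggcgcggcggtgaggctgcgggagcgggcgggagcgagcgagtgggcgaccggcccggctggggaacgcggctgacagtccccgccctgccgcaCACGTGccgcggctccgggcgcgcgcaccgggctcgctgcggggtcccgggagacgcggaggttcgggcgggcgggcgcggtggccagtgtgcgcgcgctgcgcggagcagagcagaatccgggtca
Otc, chrX:10252055-10252354, plus strand: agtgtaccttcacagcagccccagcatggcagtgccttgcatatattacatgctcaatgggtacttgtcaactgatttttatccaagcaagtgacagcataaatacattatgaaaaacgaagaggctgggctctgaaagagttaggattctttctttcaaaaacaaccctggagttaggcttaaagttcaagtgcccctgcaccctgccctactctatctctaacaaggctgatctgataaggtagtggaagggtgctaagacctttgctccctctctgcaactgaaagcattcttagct
The motifs, searched on both strands, were a glucocorticoid receptor half-site (TGTTCT), the cAMP response element (TGACGTCA), a C/EBP site (TTGCGCAA), a C/EBP-ATF element (TGATGNAA, where N is any base) and the E-box (CACGTG). RefSeq promoters were matched for 34 of the 44 genes, 38 promoters in all. The half-site was in 4 of the 38 (Agxt, Bckdhb, Haao and Kmo), beside 19% of 32851 mouse promoters of the same length. The C/EBP-ATF element was in 1 (Got1) beside 3.97%, and the E-box in 3 (Ass1, Mccc2 and Slc25a15) beside 7.15%. The cAMP response element and the C/EBP site were in 0 of the 38, beside 1.79% and 0.183%. A match is a description of letters in this window only.

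Histidine breakdown had negative log2 fold changes at every step, with 4 of 4 genes called in KO and 3 of 4 in WT. Ftcd, the formiminotransferase that passes a carbon unit of histidine to folate, was at 203, 201, 183 and 140.1 CPM in KO livers on HFMCD, against 229 to 338 CPM (median 312) in KO livers on chow. It was at 219.7, 224, 225 and 229 CPM in WT livers on HFMCD, against 306 to 649 CPM (median 413) in WT livers on chow, and the diets did not overlap in either genotype. Its log2 fold change was -0.72 (SE 0.15, adjusted p = 1.8e-04) in KO and -0.95 (SE 0.15, adjusted p = 1.3e-05) in WT. Hal, the histidine ammonia lyase that opens the pathway, had -0.50 in KO and -0.59 in WT. Amdhd1, the imidazolonepropionase, had -0.36 and -0.68, and the urocanate hydratase Uroc1 had -0.45 in KO and -0.26 (SE 0.12, adjusted p = 0.057) in WT. Scaled to the hepatocyte markers, Amdhd1 turned to 0.03 in KO and Uroc1 to 0.05 in WT. The other log2 fold changes of these 4 genes stayed below 0. Under that scaling none of them was called in KO (adjusted p 0.585 for Hal, 0.688 for Uroc1, 0.84 for Amdhd1, 0.0579 for Ftcd). In WT Amdhd1 (0.0149) and Ftcd (0.0012) stayed called, and Hal (0.144) did not.

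Tryptophan breakdown moved in part. Tdo2, the dioxygenase that commits tryptophan to the kynurenine pathway, was at 1286, 1056, 1369 and 1152 CPM in KO livers on HFMCD, against 1649.8 to 2694 CPM (median 2109) in KO livers on chow, with no overlap. Its log2 fold change was -0.84 (SE 0.14, adjusted p = 1.2e-05) in KO and -0.61 (SE 0.14, adjusted p = 6.8e-04) in WT. Kynu, the kynureninase, was at 131, 127, 157 and 144 CPM in WT livers on HFMCD, against 188 to 278 CPM (median 214) in WT livers on chow, with log2 fold changes of -0.79 (SE 0.13, adjusted p = 1.3e-05) in KO and -0.69 (SE 0.13, adjusted p = 1.2e-04) in WT. Haao, which makes the precursor of quinolinate, had -0.41 (SE 0.10, adjusted p = 0.0012) in KO and -0.20 (SE 0.11, adjusted p = 0.10) in WT. Afmid, Kmo and Acmsd were called in neither genotype, and their log2 fold changes ran from -0.05 to 0.27 in KO and from 0.02 to 0.16 in WT. Lysine is represented by Aass, the bifunctional enzyme of the saccharopine route, with log2 fold changes of -0.64 (SE 0.21, adjusted p = 0.012) in KO and -0.69 (SE 0.22, adjusted p = 0.010) in WT. Its values were 298, 254, 343 and 315 CPM in KO livers on HFMCD, against 355 to 566 CPM (median 449) in KO livers on chow, and 547, 363, 349 and 367 CPM in WT livers on HFMCD, against 376 to 1136 CPM (median 596) in WT livers on chow. The diets overlapped in WT and not in KO. Scaled to the hepatocyte markers, Aass was called in neither genotype (adjusted p = 0.319 in KO and 0.157 in WT). Under that scaling Tdo2 was called in KO and not in WT (0.069), and Haao in neither (0.767 in KO and 0.305 in WT).

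The proline genes split. Prodh2, which oxidises hydroxyproline, was at 136, 122 and 138 CPM in replicates 1 to 3 of the KO livers on HFMCD and lowest in replicate 4, with a mean of 125 ± 15.2 CPM (SD, n = 4), against 238 to 339 CPM (median 284) in KO livers on chow. In WT livers it was at 143, 155, 144 and 167 CPM on HFMCD, against 224 to 372 CPM (median 276) on chow, and the diets did not overlap in either genotype. Its log2 fold change was -1.19 (SE 0.12, adjusted p = 7.4e-09) in KO, the smallest adjusted p of the 44 genes in that contrast, and -0.88 (SE 0.12, adjusted p = 1.4e-06) in WT. Aldh4a1, the dehydrogenase that both proline and hydroxyproline carbon pass through, was at 245, 207, 269.8 and 241 CPM in KO livers on HFMCD, against 153 to 209 CPM (median 176) in KO livers on chow. In WT livers it was at 240.5, 255, 248 and 285 CPM on HFMCD, against 145 to 242 CPM (median 177) on chow. In each genotype the lowest HFMCD library fell below the highest chow library. Its log2 fold change was 0.40 (SE 0.11, adjusted p = 0.0022) in KO and 0.49 (SE 0.11, adjusted p = 6.0e-04) in WT. Exons of Aldh4a1 lie over a gene model on the same strand, so its reads could be split by the counting. Prodh, the proline dehydrogenase, had 0.03 and 0.12, not called.

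Agxt, the peroxisomal aminotransferase that turns glyoxylate into glycine, fell on HFMCD. It was at 175, 164, 227 and 196 CPM in KO livers on HFMCD, against 248 to 524 CPM (median 454) in KO livers on chow, and at 199, 223, 206 and 212 CPM in WT livers on HFMCD, against 335.3 to 564 CPM (median 422) in WT livers on chow, without overlap. This was a log2 fold change of -1.14 (SE 0.17, adjusted p = 3.3e-06) in KO and -1.02 (SE 0.17, adjusted p = 2.2e-05) in WT. The 3 genes of the glycine cleavage system differed less. Gldc had log2 fold changes of -0.20 in KO and 0.06 in WT, called in neither. Amt, its aminomethyltransferase, was at 57.7, 46.2, 63.5 and 60.7 CPM in KO livers on HFMCD, against 40.1 to 56.9 CPM (median 47.4) in KO livers on chow, with 0.24 (SE 0.11, adjusted p = 0.044) in KO and 0.24 (SE 0.11, adjusted p = 0.059) in WT. Leaving out any 1 of 7 libraries ended the KO call of Amt, with adjusted p between 0.0501 and 0.146. They were KO HFMCD replicates 1, 3 and 4 and KO chow replicates 1, 4, 5 and 6. Gcsh, the lipoyl-carrying protein, had -0.10 (SE 0.08, adjusted p = 0.23) in KO and -0.18 (SE 0.08, adjusted p = 0.046) in WT. The WT call of Gcsh ended without any 1 of WT HFMCD replicates 1, 3 and 4 and WT chow replicates 1, 2, 4, 5 and 6, with adjusted p between 0.0507 and 0.266, and under scaling to the hepatocyte markers Gcsh turned to 0.28 in KO and 0.13 in WT.

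The branched-chain genes showed small differences in both directions. The summed CPM of the 6 genes was 632 to 706 in KO livers on HFMCD and 727 to 765 in WT livers on HFMCD, against 612 to 821 in KO livers on chow and 646 to 849.8 in WT livers on chow. Bckdha, the alpha subunit of the branched-chain keto acid dehydrogenase, was at 244, 241, 219.5 and 176 CPM in KO livers on HFMCD, against 249 to 315 CPM (median 287) in KO livers on chow, with log2 fold changes of -0.40 (SE 0.09, adjusted p = 4.4e-04) in KO and -0.27 (SE 0.09, adjusted p = 0.016) in WT. Its beta subunit Bckdhb had -0.24 in KO, called, and -0.18 in WT, not called. The core subunit Dbt had 0.15 and 0.03, called in neither. Ivd, the leucine-pathway isovaleryl-CoA dehydrogenase, was at 221, 203, 203 and 216 CPM in WT livers on HFMCD, against 122 to 196 CPM (median 165) in WT livers on chow, with 0.27 (SE 0.12, adjusted p = 0.042) in KO and 0.39 (SE 0.12, adjusted p = 0.0067) in WT. Mccc1 had 0.23 (SE 0.10, adjusted p = 0.042) in KO and 0.15 in WT, and its partner Mccc2 -0.03 in KO and -0.34 (SE 0.10, adjusted p = 0.0048) in WT. In KO, the calls of Ivd and Mccc1 ended without any 1 of KO HFMCD replicates 1, 3 and 4 and KO chow replicates 1, 4 and 5, with adjusted p between 0.0514 and 0.0996. That of Bckdhb ended without KO HFMCD replicate 1, 2 or 4 or KO chow replicate 2 or 6 (adjusted p between 0.0524 and 0.0941). Scaled to the hepatocyte markers, Bckdhb and Mccc2 turned to 0.14 and 0.37 in KO and Bckdha to 0.05 in WT. Under that scaling Bckdha had -0.007 in KO (adjusted p = 0.944) and Mccc2 -0.03 in WT (0.824). The WT call of Bckdha ended without WT chow replicate 2 (adjusted p = 0.0834) or 4 (0.106). The number of the 44 genes called higher in KO was 3 without any 1 of KO HFMCD replicates 1 and 4 and KO chow replicates 1, 4 and 5, and 2 without KO HFMCD replicate 3. In WT it was 5 without WT chow replicate 2, 4 or 6.

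Lists of related genes, chosen by name, differed in their calls between the diets. Over all genes tested, 36% were called lower and 33.7% higher on HFMCD in KO, and 33.6% lower and 29% higher in WT. Of 50 other tested enzymes of amino acid breakdown, 16 were called lower and 12 higher on HFMCD in KO, and 17 lower and 10 higher in WT. These calls were close to or below the shares over all genes, and the medians were -0.03 and -0.01. Kyat1, a kynurenine aminotransferase, had -1.61 in KO and -1.67 in WT. Cbs, the first enzyme of transsulfuration, had -1.03 and -0.77, and Oat, the ornithine aminotransferase, -1.04 and -0.91. The sulfide oxidase Sqor rose by 1.21 in KO and 0.98 in WT.

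Of 9 genes of amino acid synthesis, 7 were called higher and 1 lower in KO, and 5 higher and 1 lower in WT. Asns, the asparagine synthetase, was at 8.94, 11.3, 3.11 and 5.89 CPM in KO livers on HFMCD, against 0.298 to 0.714 CPM (median 0.365) in KO livers on chow, and at 1.94, 3.79, 3.91 and 2.72 CPM in WT livers on HFMCD, against 0.32 to 0.727 CPM (median 0.465) in WT livers on chow. Its log2 fold change was 4.04 (SE 0.31, adjusted p = 7.1e-11) in KO and 2.64 (SE 0.33, adjusted p = 2.8e-07) in WT. Psat1 of serine synthesis had 3.36 and 2.92. Aldh18a1 and Pycr1 of proline synthesis had 2.18 and 3.51 in KO and 2.04 and 3.89 in WT. The gene called lower was Glul, the glutamine synthetase of the cells around the central vein, with -0.80 (SE 0.11, adjusted p = 8.2e-07) in KO and -0.29 (SE 0.11, adjusted p = 0.024) in WT.

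Of 17 amino acid transporters, 8 were called lower and 4 higher in KO, and 7 lower and 2 higher in WT. For this list and the next 2, the shares over all genes were 36% lower and 33.7% higher in KO. In WT they were 33.6% lower and 29% higher. Slc16a10, an aromatic amino acid carrier, had -1.70 in KO and -1.46 in WT, and Slc7a8, a neutral amino acid exchanger, 2.32 and 2.32. Of 16 regulators of hepatic catabolism, 12 were called lower and 1 higher in each genotype. Gcgr, the glucagon receptor, was at 127, 134, 114 and 104.1 CPM in KO livers on HFMCD, against 258 to 290.0 CPM (median 281) in KO livers on chow, with log2 fold changes of -1.21 (SE 0.08, adjusted p = 1.1e-11) in KO and -1.21 (SE 0.09, adjusted p = 2.9e-11) in WT. Hnf4a, a transcription factor of hepatocyte identity, had -1.19 and -0.89, and Klf15, a factor that drives amino acid catabolism, -1.40 and -1.13. The glucocorticoid receptor Nr3c1 was the one called higher, by 0.32 in KO and 0.25 in WT. A list of 7 genes induced by fasting or glucocorticoids, added after the values were seen (Pck1, G6pc, Igfbp1, Lpin1, Fkbp5, Per1 and Tsc22d3), had 6 of 7 called lower in KO and 7 of 7 in WT. Its summed CPM was 1111 to 1911 in KO livers on HFMCD and 1622 to 2624 in WT livers on HFMCD, against 3376 to 7248 in KO livers on chow and 4089 to 13272 in WT livers on chow. The labels do not say when in the day or how long after food the livers were taken, and the part of feeding state in the diet contrast was not tested.

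**Figure D4:**
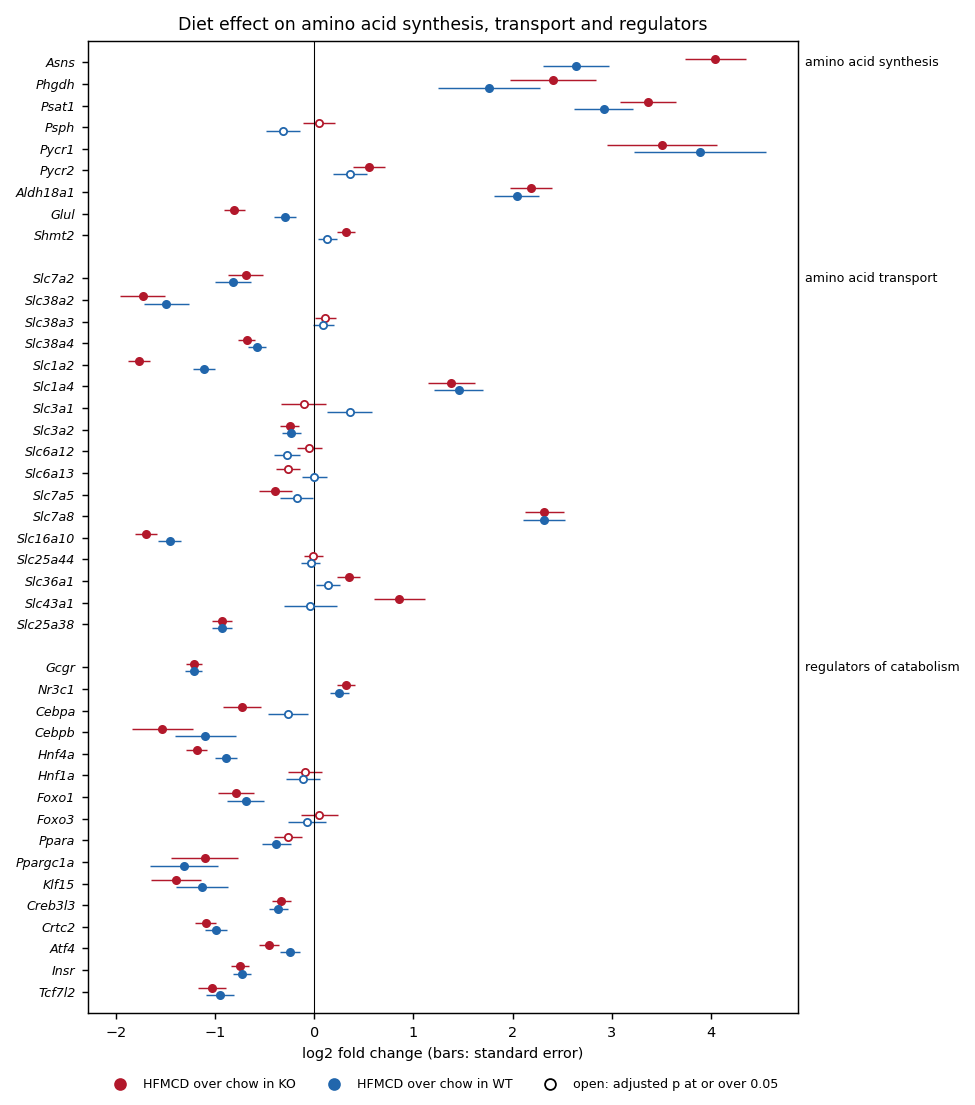
Points give the log2 fold change of HFMCD over chow for single genes of the synthesis, transport and regulator lists, in KO and in WT livers; filled points have an adjusted p under 0.05. Most synthesis genes lie to the right of 0, and most transporters and most regulators to the left.

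The next comparison asked what loss of Mboat7 in hepatocytes did to these genes on HFMCD. Of the 44, 0 were called in either direction with edgeR, beside 0.223% of all genes tested as higher in KO and 0.0957% as lower. DESeq2 also called 0 of the 44, beside 114 genes higher and 79 lower over the whole table, and limma-voom called 0, beside 235 higher and 86 lower. Of the 44, 5 had an unadjusted p under 0.05, beside 9.96% of all genes. The log2 fold changes leaned to the negative side, with 39 of 44 below 0 and a median of -0.13, against 0.01 for all genes, of which 51.1% were above 0. The median of the 44 was -0.21 without KO HFMCD replicate 3 and -0.09 without KO HFMCD replicate 2. Of the 14 hepatocyte markers 10 were also below 0, with a median of -0.06. Scaled to those markers, the median of all genes was 0.08 and that of the 44 genes -0.07. In 8 genes every KO library was below every WT library (Aass, Ftcd, Hal, Ivd, Prodh2, Slc25a15, Tdo2 and Uroc1), and in 0 genes every KO library was above. Over all genes these shares were 3.66% lower and 4.96% higher.

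The 5 genes with the smallest p on HFMCD are given as values. Gpt2, the mitochondrial alanine aminotransferase, was at 514, 629.8, 393 and 439.9 CPM in KO livers, against 753, 641, 614 and 573 CPM in WT livers, a log2 fold change of -0.39 (SE 0.15, adjusted p = 0.38) with overlap. Tdo2 was at 1286, 1056, 1369 and 1152 CPM in KO livers, against 1722, 1430.5, 1615 and 1516 CPM in WT livers, with -0.37 (SE 0.15, adjusted p = 0.40) and no overlap. Gldc, the glycine decarboxylase, was at 247, 181, 178 and 176 CPM in KO livers, against 281, 227, 248 and 255 CPM in WT livers, with -0.37 (SE 0.17, adjusted p = 0.46) and overlap by KO replicate 1. Slc25a15 was at 235, 236, 240 and 221 CPM in KO livers, against 305, 286, 288 and 263 CPM in WT livers, with -0.29 (SE 0.13, adjusted p = 0.47) and no overlap. For Prodh2 the log2 fold change was -0.28 (SE 0.13, adjusted p = 0.47), from the HFMCD values given above, and KO and WT did not overlap. Cholangiocyte markers summed to 574 to 825 CPM in KO livers on HFMCD, against 215 to 256 CPM in WT livers on HFMCD, with 6 of 9 tested markers called higher. Their part in the values of the 44 genes was not tested.

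On chow, 4 of the 44 genes were called lower in KO (9.09%) and 0 higher with edgeR, beside 1.61% lower and 0.561% higher over all genes. DESeq2 called 5 of the 44 lower, beside 473 of all genes, and limma-voom 1, beside 81. Both called 0 of the 44 higher. An unadjusted p under 0.05 was found for 13, beside 17.9% of all genes. The log2 fold change was below 0 in 34 of 44, with a median of -0.14 against 0.01 for all genes. In 0 of the 44 were KO and WT free of overlap, beside 0.421% of genes lower and 0.236% higher without overlap. Mccc2 was at 43.8 to 62.4 CPM (median 53.0) in KO livers and 56.1 to 81.5 CPM (median 71.6) in WT livers, a log2 fold change of -0.38 (SE 0.09, adjusted p = 0.025). Ftcd was at 229 to 338 CPM (median 312) in KO livers and 306 to 649 CPM (median 413) in WT livers, with -0.54 (SE 0.13, adjusted p = 0.032). Amdhd1 was at 160.2 to 251 CPM (median 189) in KO livers and 201 to 311 CPM (median 269.6) in WT livers, with -0.43 (SE 0.11, adjusted p = 0.035). Slc25a15 was at 416 to 513 CPM (median 461) in KO livers and 488 to 846 CPM (median 518) in WT livers, with -0.40 (SE 0.11, adjusted p = 0.047). Kmo, the kynurenine monooxygenase, had the next smallest p, at 192 to 297 CPM (median 248) in KO livers and 280.5 to 401 CPM (median 312) in WT livers, with -0.42 (SE 0.12, adjusted p = 0.061). Ranges of KO and WT overlapped for each of the 5.

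The number of calls on chow changed when single libraries were left out, for the 44 genes and for all genes. Of the 44, 0 were called lower without any 1 of KO chow replicates 1, 4 and 6 and WT chow replicates 5 and 6, and over all genes these fits called 33 to 78 lower, where the full fit called 252. It was 1 of the 44 without KO chow replicate 3 (138 of all genes) or WT chow replicate 4 (131), and 2 without WT chow replicate 2 (204). A fit to the chow libraries alone called 0 of the 44 lower and 1 of all genes, and limma-voom with sample quality weights 1 and 81. Without KO chow replicates 1 and 7 it was 1 of the 44, and the calls over all genes were also fewer than 252. The log2 fold changes of the 4 genes called in the full fit stayed below 0 in every fit without 1 library. Where a call was lost without 1 library, the log2 fold change was -0.55 to -0.38 for Ftcd, -0.38 to -0.31 for Mccc2 and -0.44 to -0.36 for Amdhd1. For Slc25a15 it was -0.42 to -0.26, with -0.26 found without WT chow replicate 6. Without WT chow replicate 6 the median of the 44 genes was -0.07, where the full fit had -0.14. Without KO chow replicates 1 and 7 as well it was -0.05. That WT library held 7253 CPM of Tat, where the other 5 held 1168 to 2578, and 13272 summed CPM of the 7 fasting-induced or glucocorticoid-induced genes, where the other 5 held 4089 to 6723.

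Related lists also held calls on chow, where 1.61% of all genes tested were called lower in KO and 0.561% higher. Of 50 further catabolic enzymes 4 were called lower and 0 higher, and 38 had log2 fold changes below 0 (median -0.18). The 4 were the hydroxylysine kinase Hykk at -0.53 (SE 0.11, adjusted p = 0.018), the glyoxylate reductase Grhpr at -0.44 (SE 0.10, adjusted p = 0.032), the GABA aminotransferase Abat at -0.50 (SE 0.12, adjusted p = 0.036) and the aminoadipate aminotransferase Aadat at -0.42 (SE 0.11, adjusted p = 0.037). Shmt2, the mitochondrial serine hydroxymethyltransferase, was the one called among the 9 synthesis genes, with -0.32 (SE 0.08, adjusted p = 0.039), and Gcgr the one among the 16 regulators, with -0.28 (SE 0.07, adjusted p = 0.035). These 6 calls were not recomputed without single libraries. Among the 17 transporters the smallest adjusted p was that of Slc43a1, a carrier of neutral amino acids, with -0.85 (SE 0.24, adjusted p = 0.062). On HFMCD the smallest adjusted p in these 4 lists belonged to Asns, with 1.24 (SE 0.32, adjusted p = 0.094).

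**Figure D5:**
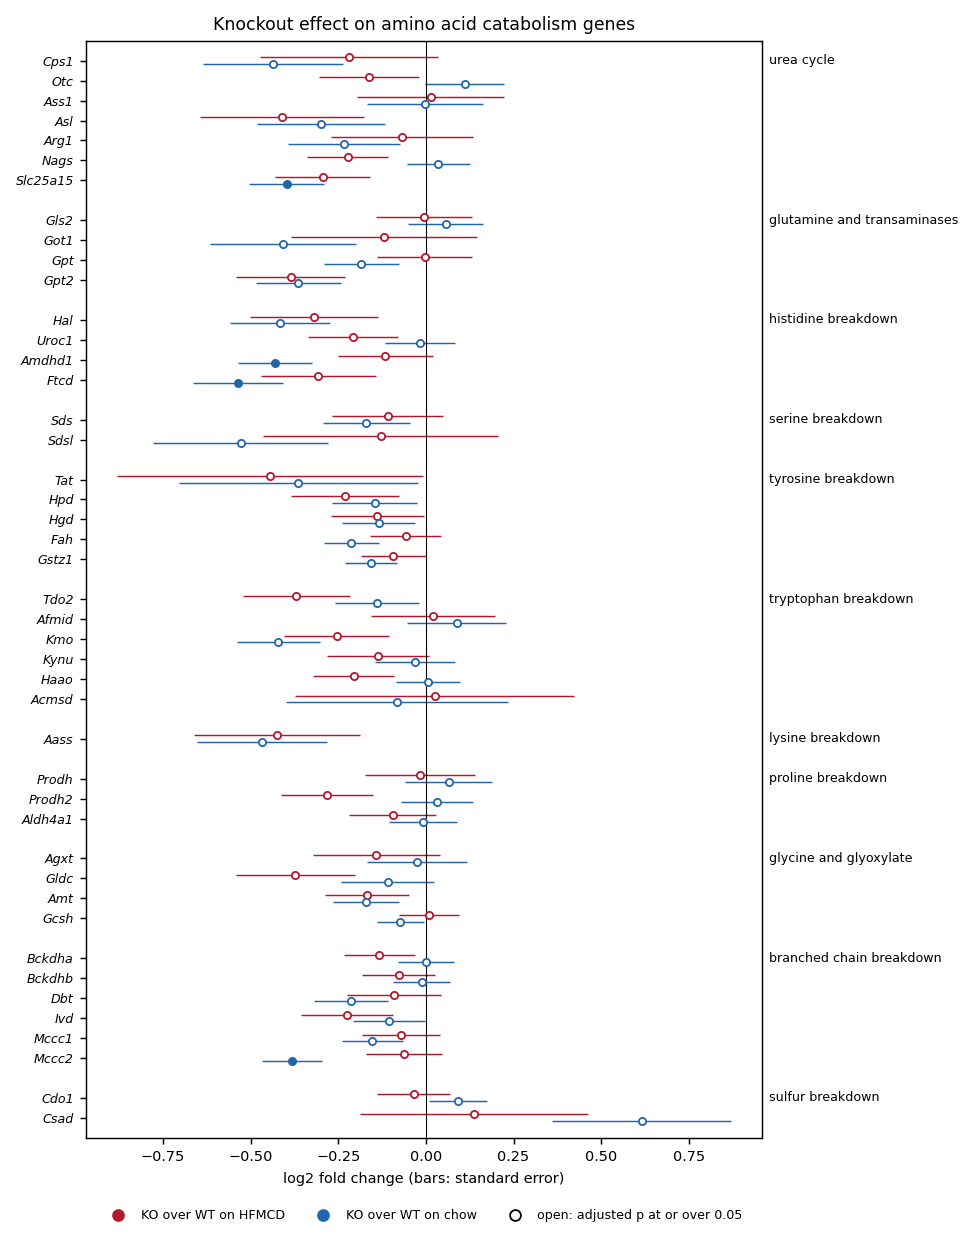
Points give the log2 fold change of KO over WT for each of the 44 genes on HFMCD and on chow, with bars of 1 standard error; filled points have an adjusted p under 0.05. Most points lie left of 0 on each diet, none is filled for HFMCD, and Slc25a15, Amdhd1, Ftcd and Mccc2 are filled for chow.

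Whether the KO effect differed between the diets was tested directly. Of the 44 genes 0 were called with edgeR, beside 0% higher and 0% lower over all genes. DESeq2 also called 0 of the 44, beside 45 genes higher and 52 lower over the whole table, and limma-voom called 0, beside 6 higher and 4 lower. With edgeR 1 of the 44 had an unadjusted p under 0.05. That gene was Mccc2, with a difference of log2 fold changes, HFMCD minus chow, of 0.32 (SE 0.14, adjusted p = 0.43). Prodh2 had -0.31 (SE 0.17, adjusted p = 0.54), Amdhd1 0.31 (SE 0.17, adjusted p = 0.56), Nags -0.26 (SE 0.15, adjusted p = 0.58) and Otc -0.27 (SE 0.18, adjusted p = 0.66). The median difference was -0.01, and 21 of 44 were above 0.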

How the data were processed

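RNA-seq of 21 whole mouse livers in 4 groups was analysed. The authors deposited raw read counts per gene symbol, 1 file per library, with no normalization recorded. The submitters' processing notes name the build GRCm38 and list featureCounts 1.6.1, STAR 2.6.1d and CASAVA 2.17, without roles; the annotation release and the strand setting are not given in the sources used here. Total RNA came from livers flushed with PBS and stored in RNAlater, per the labels' protocols. Totals were 17502231 to 25822972 counts per library, and 0 pairs of libraries within a group were identical. The animals carry separate numbers, and the labels say no more of how they were housed or bred. The p-values therefore set group differences against the spread between these samples.

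Counts were fitted in edgeR 4.0.16 (R 4.3.3) after filterByExpr, with TMM scaling and 1 quasi-likelihood model of 4 group means over all 21 libraries. Two-sided F tests were run for 5 contrasts, with Benjamini-Hochberg adjustment over 15677 genes, and genes were called under 0.05. The SE was taken from the fold change and its F statistic. CPM is relative to TMM-adjusted library totals over tested genes, and TPM divides by the summed exon length in GENCODE M21, in which all 55418 symbols were found. The edgeR fit alone was run on simulated counts, with planted changes of 1 log2 unit. That run held no outlying libraries and did not cover DESeq2 or limma-voom.

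The 44 genes, the related lists and the marker lists were chosen with earlier results of these data known, so their direction is not independent evidence. Genes are named by a rule: every called gene of the genotype contrasts, or the 5 with the smallest p where fewer than 5 were called. For diet, the rule takes the largest called change of each pathway and any gene that goes against its pathway, and of each related list up to 4 called genes with the smallest p. Some genes of the related lists, such as Cbs, Oat and Klf15, were picked with their values in view. Exons of Acmsd, Afmid, Bckdha, Csad, Gls2, Gstz1, Mccc1, Nags and Sds overlap a gene on the opposite strand, and those of Afmid and Aldh4a1 one on the same strand, so their counts are uncertain.

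Alternatives included limma-voom (limma 3.58.1) with quality weights, DESeq2 1.42.0, RLE, upper-quartile and hepatocyte-marker scaling, no low-count filter, the compared groups only, and leaving out libraries. RLE and upper-quartile factors are those of edgeR.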

Additional observations from a re-analysis of the deposited data

Results flagged for a closer look

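Within each group of 4 to 7 libraries, the highest or lowest library was set against the others by Dixon's criterion, which chance passes in about 1 group in 20. Of 180 gene and group pairs, 13 passed it, 4 of them in WT chow replicate 6. That library stood above the other 5 of its group for Tat at 7253 CPM (others 1168 to 2578), Arg1 at 3369 CPM (others 1307 to 2043), Got1 at 999 CPM (others 291 to 503) and Sdsl at 110.9 CPM (others 37.2 to 58.5). KO HFMCD replicate 2 stood apart for Tat, at 797.1 CPM where the others had 390.7 to 401 CPM, and for Kmo, at 203 CPM where the others had 315 to 332 CPM. WT HFMCD replicate 1 stood apart for Asl, at 636.1 CPM with the others at 419 to 435 CPM, and for Aass, at 546.6 CPM with the others at 349 to 367 CPM.

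The remaining cases were single. Sds was low in WT HFMCD replicate 3, at 122.6 CPM against 147 to 150 CPM in the others. Gldc was high in KO HFMCD replicate 1, at 246.6 CPM against 176 to 180.5 CPM. Acmsd was high in KO chow replicate 4, at 37.14 CPM against 17.6 to 25.9 CPM. Prodh2 was high in WT chow replicate 2, at 372 CPM against 224 to 279 CPM, and Amt in WT chow replicate 5, at 66.66 CPM against 49.5 to 55.4 CPM.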

How the results depend on the processing

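The counts of the 44 genes called were recomputed under each alternative, along with each gene. In KO against WT on chow, the 4 genes called lower became 1 with limma-voom, 0 with only the compared groups, 1 without KO chow replicates 1 and 7, and 0 to 5 without 1 library. In HFMCD against chow in WT, the 3 called higher became 6 with upper-quartile scaling and 10 with hepatocyte-marker scaling, and 3 to 5 without 1 library. The 23 called lower became 14 with hepatocyte-marker scaling and 20 to 25 without 1 library. In KO, the 6 called higher became 14 with hepatocyte-marker scaling, 3 without KO chow replicates 1 and 7, and 2 to 7 without 1 library, and the 25 called lower became 12 with hepatocyte-marker scaling and 22 to 26 without 1 library. A pair of further fits were chosen after seeing the data. Without WT chow replicate 6 and KO chow replicates 1 and 7, 0 genes were called lower in KO on chow and 3 higher in KO on HFMCD against chow. Without the 4 chow libraries with gallbladder mucosa transcripts, these counts were 1 and 3. The counts of 0 for KO against WT on HFMCD and for the difference of the KO effect stayed at 0 in every alternative.

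Of 4928 gene values over all alternatives, 4741 kept their side of the threshold with no called value changing sign, 135 lost the call and 42 gained one. A further 10 changed sign and were called before or after, each with hepatocyte-marker scaling. In WT they were Bckdha at 0.0522, Fah at 0.26 and Gcsh at 0.13. In KO they were Amdhd1 at 0.0286, Bckdhb at 0.14, Cdo1 at 0.13, Gcsh at 0.28, Gpt at 0.39, Gpt2 at 0.37 and Mccc2 at 0.37. Hepatocyte-marker scaling rests on 14 genes that were themselves called lower on HFMCD in 9 cases in KO and 7 in WT. Beyond that scaling, the cause of these shifts was not tested. No paired analysis was possible because the labels number the animals without repeats across groups. Group sizes of 4 to 7 limit the precision of the genotype contrasts.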
